A study of Mus musculus with 9 samples.

Results

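Macrophage genes were followed in bulk RNA-seq libraries of mouse main olfactory epithelium. The 10 genes were Csf1r, Cx3cr1, Adgre1, Aif1, Cd68, C1qa, C1qb, C1qc, Mrc1 and Lyz2, taken by symbol from a table of 55291 genes. All 10 had enough reads to be tested among 23225 genes. The tissue came from mice 8 to 12 weeks old on the C57BL/6 background, with 3 wild-type mice, 3 Ms4a cluster-/- mice and 3 Ms4a6c-/- mice, 1 mouse per library. The Ms4a cluster knockout was made with CRISPR/Cas9 and the Ms4a6c knockout by homologous recombination in the knockout mouse project. Both are germline deletions, so macrophages and every other cell of the tissue lack the genes. The same 3 wild-type mice, which the study calls littermate controls, are compared with both here. Of which knockout line they were littermates is not stated, so line or litter cannot be told apart from genotype. Ms4a genes are expressed by macrophages, so their loss in the whole animal raised the question of whether macrophage transcripts of the olfactory mucosa differed as well.

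Macrophages of the olfactory mucosa sit in the connective tissue under the sensory epithelium and among its cells, where they take up the remains of neurons that die as the epithelium renews itself. They depend on Csf1r, the receptor for the growth factors CSF1 and IL34, and on the transcription factor PU.1, encoded by Spi1. Cx3cr1 is the receptor for the chemokine fractalkine, Adgre1 encodes the surface antigen F4/80 and Aif1 the actin-binding protein IBA1. Cd68 is a lysosomal membrane protein, C1qa, C1qb and C1qc encode the chains of complement C1q, Mrc1 is the mannose receptor CD206, and Lyz2 encodes a secreted lysozyme. In whole tissue, fewer macrophages and less of a transcript per macrophage cannot be told apart.

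Promoters are shown for the 3 genes whose Ms4a cluster knockout values did not overlap the wild-type values, C1qb, C1qc and Mrc1, and for Lyz2, which varied most within a genotype. Each is the 250 bases before the gene's start in RefSeq, read along the gene's strand on GRCm38.p6. RefSeq starts differ from the GENCODE gene coordinates given below. By the latter, part of the window lies inside the gene for C1qc, Mrc1 and Lyz2. Capitals mark GAGGAA or its reverse complement TTCCTC, the core that PU.1 binds. The windows are chr4:136886201-136886450 on the minus strand for C1qb, chr4:136892915-136893164 on the minus strand for C1qc, chr2:14229164-14229413 on the plus strand for Mrc1 and chr10:117282273-117282522 on the minus strand for Lyz2.
C1qb: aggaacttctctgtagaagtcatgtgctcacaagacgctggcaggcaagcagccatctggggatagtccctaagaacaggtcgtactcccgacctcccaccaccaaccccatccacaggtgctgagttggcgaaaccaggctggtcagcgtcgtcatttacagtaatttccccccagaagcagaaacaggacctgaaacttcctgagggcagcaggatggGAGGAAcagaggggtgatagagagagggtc
C1qc: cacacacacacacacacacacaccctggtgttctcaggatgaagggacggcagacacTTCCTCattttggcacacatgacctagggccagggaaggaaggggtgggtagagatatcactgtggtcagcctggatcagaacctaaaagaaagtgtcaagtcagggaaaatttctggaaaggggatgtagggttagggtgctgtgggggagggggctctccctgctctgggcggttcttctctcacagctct
Mrc1: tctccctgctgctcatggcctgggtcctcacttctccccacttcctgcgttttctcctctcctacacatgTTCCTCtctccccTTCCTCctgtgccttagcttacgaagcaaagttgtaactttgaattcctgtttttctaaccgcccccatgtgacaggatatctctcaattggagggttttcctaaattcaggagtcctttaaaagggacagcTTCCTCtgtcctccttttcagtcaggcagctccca
Lyz2: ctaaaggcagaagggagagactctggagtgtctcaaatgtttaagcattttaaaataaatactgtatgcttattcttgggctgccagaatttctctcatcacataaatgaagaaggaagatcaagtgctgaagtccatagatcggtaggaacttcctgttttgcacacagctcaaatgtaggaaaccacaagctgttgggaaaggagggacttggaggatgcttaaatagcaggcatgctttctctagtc

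The C1qb window held 1 copy of these letters, which started 30 bases before the gene's RefSeq start. The C1qc window held 1, which started 193 bases before its RefSeq start, and the Mrc1 window held 3. The Lyz2 window held 0. Of the 10 genes, 7 had a promoter in the RefSeq table, and 5 of the 7 held the letters on either strand, against 7639 of all 32851 promoters of that length (23.3%). Csf1r, Adgre1 and C1qa had no entry. A match is a description of the letters and not of binding.

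The expected counts of a library summed to between 13954591 and 21987174, and a count of 3, taken as the limit of detection, was between 0.123 and 0.299 CPM, which is the count relative to the library's scaled total, with counting error only. All levels are CPM after TMM scaling, which sets libraries to a common scale by the bulk of their genes. Ms4a6c was at 0.00, 0.12 and 0.13 CPM in the 3 libraries labelled Ms4a6c knockout and at 0 counts in those labelled Ms4a cluster knockout, against 3.84, 4.99 and 4.66 CPM in wild-type mice. The libraries of wild-type mouse 1 and Ms4a cluster knockout mouse 2 stood apart. A list of 10 nasal gland genes, among them the secreted Bpifb9a and Bpifb9b and the odorant-binding proteins Obp1a and Obp2a, summed to 269200 and 270000 CPM in these libraries and to between 12230 and 45670 CPM in the other 7. These are called the gland-rich libraries here, and results are given with and without them where they matter. Their TMM factors were 0.702 and 0.704, against 1.07 to 1.13 in the other 7 libraries. Plain library sizes, used below as an alternative, leave these factors out. Nothing but the labels says that the mice of a genotype were prepared separately, so p-values measure the spread between these samples.

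Lyz2 gave most of the reads of these 10 genes, not all of which need come from macrophages. Per kilobase of exon, its wild-type level was 169 CPM with a range of 119 to 255 over the 3 mice. C1qb followed at 19.2 CPM per kilobase (17.6 to 20.97) and C1qa at 18.9 (17.1 to 20.98), and these neighbours did not differ beyond their spread. The next levels per kilobase were 10.2 CPM for Cd68 (6.96 to 12.7), 9.31 for C1qc (8.19 to 10.5) and 7.17 for Csf1r (6.00 to 8.36), with ranges that overlapped. Adgre1 was at 2.48 CPM per kilobase (2.43 to 2.57), above Cx3cr1 at 1.97 (1.81 to 2.08) in every wild-type mouse. Aif1 at 1.56 (1.34 to 1.90) and Mrc1 at 1.55 (1.51 to 1.64) were lowest, and the ranges of Cx3cr1 and Aif1 overlapped. Lengths are those of all annotated exons together, so a gene with many isoforms is set too low.

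**Figure D1:**
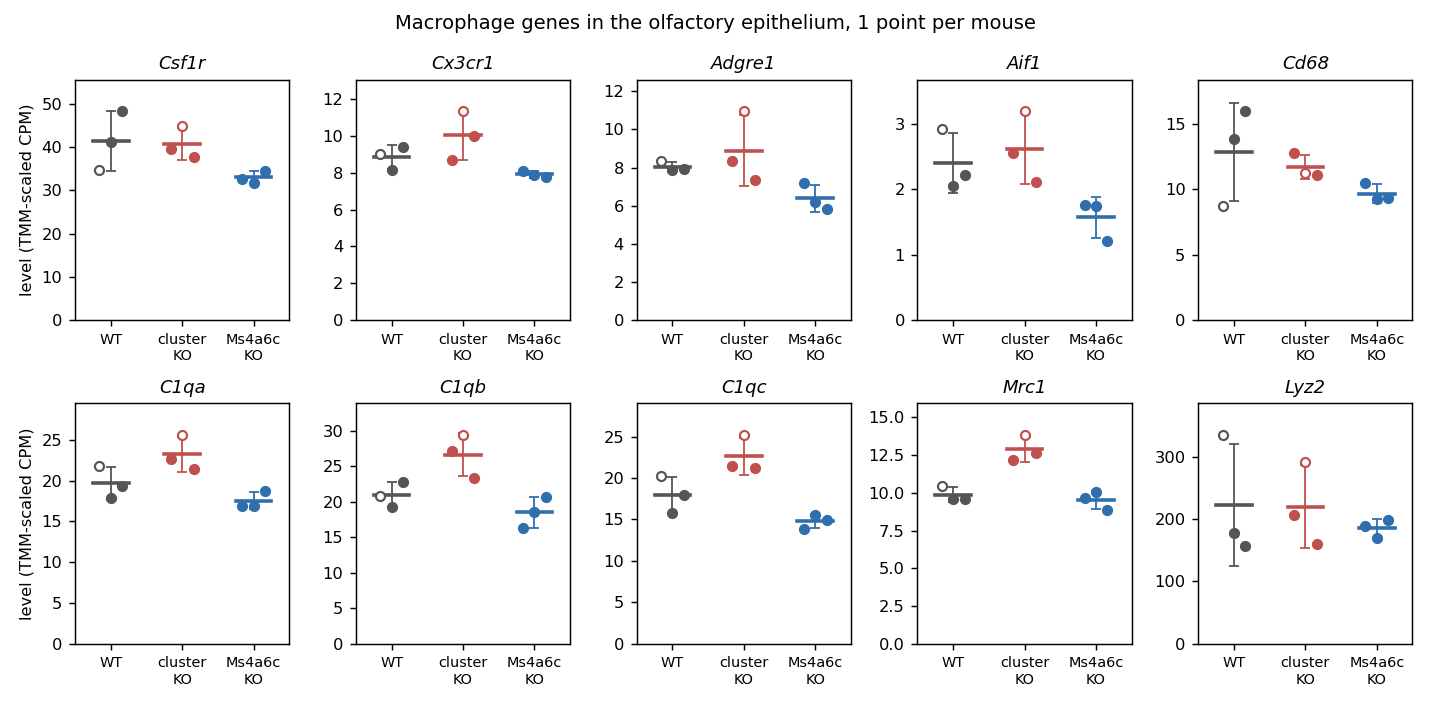
Level of each macrophage gene (TMM-scaled CPM, linear axes from 0) in each mouse of the 3 genotypes. Lines are means, bars 1 SD of 3 mice, and open points the 2 gland-rich libraries. The Ms4a6c knockout mice lie under every Ms4a cluster knockout mouse in all panels but Lyz2.

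Csf1r (GRCm38 chromosome 18, 61100598 to 61132149, plus strand) stood at 34.6, 41.2 and 48.3 CPM in the wild-type mice, at 39.6, 44.9 and 37.6 CPM in the Ms4a cluster knockout mice and at 32.7, 31.8 and 34.5 CPM in the Ms4a6c knockout mice. All Ms4a6c knockout values were under all others, while the other 2 genotypes overlapped. The mean was 0.796 times the wild-type level in the Ms4a6c knockout, a log2 difference of -0.33 (95% interval -0.58 to -0.07), with an unadjusted p of 0.0163 and an adjusted p of 0.33 from edgeR's quasi-likelihood test. Without the gland-rich libraries, which include the lowest wild-type mouse, this difference was -0.44 and passed the test (edgeR adjusted p = 0.0346). Without the highest wild-type mouse, mouse 3, it was -0.2 and did not pass (edgeR adjusted p = 0.621). For the Ms4a cluster knockout the difference from the wild type was -0.03 (-0.28 to 0.22), and its sign depended on which mouse was left out.

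Cx3cr1, on the minus strand of chromosome 9 (119901616 to 120069879), was at 9.03, 8.15 and 9.39 CPM in wild-type mice, 8.72, 11.4 and 10.02 CPM in Ms4a cluster knockout mice and 8.12, 7.88 and 7.77 CPM in Ms4a6c knockout mice. Again the Ms4a6c knockout mice were lowest, here by a narrow margin, with 8.12 against a lowest wild-type value of 8.15 CPM. Its difference from the wild type was -0.16 (-0.44 to 0.12) in the Ms4a6c knockout and 0.17 (-0.11 to 0.45) in the Ms4a cluster knockout, and neither passed (edgeR adjusted p = 0.703 and 0.971).

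Adgre1, at 57358691 to 57483527 on the plus strand of chromosome 17, had nearly equal wild-type values of 8.32, 7.88 and 7.91 CPM. The Ms4a cluster knockout mice were at 8.32, 10.96 and 7.37 CPM and the Ms4a6c knockout mice at 7.17, 6.20 and 5.798 CPM, the latter under every other mouse. The Ms4a6c knockout difference was -0.33 (-0.69 to 0.04, edgeR adjusted p = 0.516). The Ms4a cluster knockout difference was 0.13 with all mice and -0.01 without the gland-rich libraries.

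Aif1, on the minus strand of chromosome 17 (35170991 to 35176068), was the least counted of the 10, with 19 to 51 counts a library. Its levels were 2.91, 2.05 and 2.22 CPM in wild-type mice, 2.55, 3.19 and 2.11 CPM in Ms4a cluster knockout mice and 1.76, 1.74 and 1.21 CPM in Ms4a6c knockout mice. The log2 difference of the Ms4a6c knockout from the wild type was -0.59, with a wide interval of -1.16 to -0.02 and an unadjusted p of 0.0426 (edgeR adjusted p = 0.458).

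Cd68, on the minus strand of chromosome 11 (69664213 to 69666153), varied more among wild-type mice than among knockout mice, with a coefficient of variation of 28.9% against 7.8% and 7.29%. The wild-type values were 8.74, 13.9 and 16.0 CPM, and the gland-rich mouse was the lowest of them. Ms4a cluster knockout mice were at 12.8, 11.3 and 11.1 CPM and Ms4a6c knockout mice at 10.5, 9.24 and 9.30 CPM, so the Ms4a6c knockout lay under the Ms4a cluster knockout in every mouse but overlapped the wild type through wild-type mouse 1. The Ms4a6c knockout difference from the wild type was -0.41 (-0.83 to 0.01, edgeR adjusted p = 0.483), and without the gland-rich libraries it was -0.62 and passed (edgeR adjusted p = 0.0484). Without wild-type mouse 3, the highest, it was -0.23 and did not pass (edgeR adjusted p = 0.753).

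The C1q genes lie side by side on the minus strand of chromosome 4, where C1qb (136880129 to 136886187), C1qc (136889804 to 136893065) and C1qa (136895917 to 136898803) share a stretch of 18.7 kb. C1qa was at 21.8, 17.8 and 19.3 CPM in wild-type mice, 22.7, 25.6 and 21.4 CPM in Ms4a cluster knockout mice and 16.9, 16.9 and 18.7 CPM in Ms4a6c knockout mice. C1qb was at 20.8, 19.2 and 22.8 CPM, then 27.2, 29.4 and 23.3 CPM, and then 16.3, 18.5 and 20.6 CPM in the same order of genotypes. C1qc was at 20.2, 15.8 and 17.9 CPM in wild-type mice, at 21.4, 25.2 and 21.3 CPM in Ms4a cluster knockout mice and at 13.9, 15.6 and 14.9 CPM in Ms4a6c knockout mice. For C1qc the 3 genotypes did not overlap at all, with the Ms4a cluster knockout highest and the Ms4a6c knockout lowest. For C1qb the Ms4a cluster knockout was above both other genotypes, and for C1qa it overlapped the wild type through the gland-rich wild-type mouse.

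Between the knockouts, the log2 difference of the Ms4a cluster knockout from the Ms4a6c knockout was 0.40 for C1qa (0.18 to 0.63), 0.53 for C1qb (0.27 to 0.78) and 0.61 for C1qc (0.37 to 0.86). For C1qc this is a level 1.53 times as high, with an unadjusted p of 0.000226 and an adjusted p of 0.0506, just past the threshold of 0.05, in edgeR's test. Over 15 alternative fits its adjusted p ran from 0.00189 (DESeq2) to 0.96 (edgeR with plain library sizes), and 5 of the 15 passed, among them edgeR without the gland-rich libraries (0.53, adjusted p = 0.0486). C1qa and C1qb had edgeR adjusted p-values of 0.197 and 0.123. Per kilobase, C1qb was between 0.909 and 1.14 times C1qa over the 9 mice. C1qc was 0.478 to 0.499 times C1qa in wild-type mice, 0.509 to 0.535 times in Ms4a cluster knockout mice and 0.429 to 0.495 times in Ms4a6c knockout mice, so this ratio was highest in the Ms4a cluster knockout, without overlap.

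Mrc1, on the plus strand of chromosome 2 (14229392 to 14332057), was at 10.5, 9.60 and 9.61 CPM in wild-type mice and at 9.63, 10.1 and 8.86 CPM in Ms4a6c knockout mice. The Ms4a cluster knockout mice were all higher, at 12.2, 13.9 and 12.6 CPM. This was the difference from the wild type with the smallest p among the 10 genes in the Ms4a cluster knockout, 0.38 on the log2 scale (0.15 to 0.61, unadjusted p = 0.00417), and it did not pass the adjustment (edgeR adjusted p = 0.968). It was 0.37 without the gland-rich libraries. The Ms4a6c knockout differed from the wild type by -0.05 (-0.28 to 0.18).

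Lyz2, on the minus strand of chromosome 10 (117277331 to 117282321), overlapped between all 3 genotypes. It was at 335, 178 and 156 CPM in wild-type mice, at 207, 292 and 160 CPM in Ms4a cluster knockout mice and at 188, 169 and 199 CPM in Ms4a6c knockout mice, and its 2 highest values, 335 and 292 CPM, were those of the 2 gland-rich libraries. The difference from the wild type was -0.02 in the Ms4a cluster knockout (-0.64 to 0.60) and -0.27 in the Ms4a6c knockout (-0.89 to 0.35). Both turned positive without the gland-rich libraries, to 0.14 and 0.15. The part of gland tissue in the Lyz2 values was not tested. Lyz2 can share reads with its paralog Lyz1, which was at 0.40 to 1.69 CPM.

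Summed over the 10 genes, Lyz2 made up between 50.4% and 71.0% of the reads in CPM. The sum of the other 9 was 142.0 ± 9.996 CPM in wild-type mice, 159.3 ± 14.8 CPM in Ms4a cluster knockout mice and 118.8 ± 2.52 CPM in Ms4a6c knockout mice (SD, n = 3 each). Its ranges were 135.6 to 153.5, 146.8 to 175.7 and 116.9 to 121.7 CPM, so the Ms4a6c knockout mice were under all others and the other genotypes overlapped. With Lyz2 included, the sums were 365.0 ± 92.9, 379.1 ± 81.5 and 304.2 ± 16.8 CPM (SD, n = 3 each) and all 3 overlapped. The mean z score of the 10 differed between the Ms4a6c knockout and the wild type by -0.945 with TMM and -0.152 with plain library sizes, which move the median of all genes up by 0.18 on the log2 scale.

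**Figure D2:**
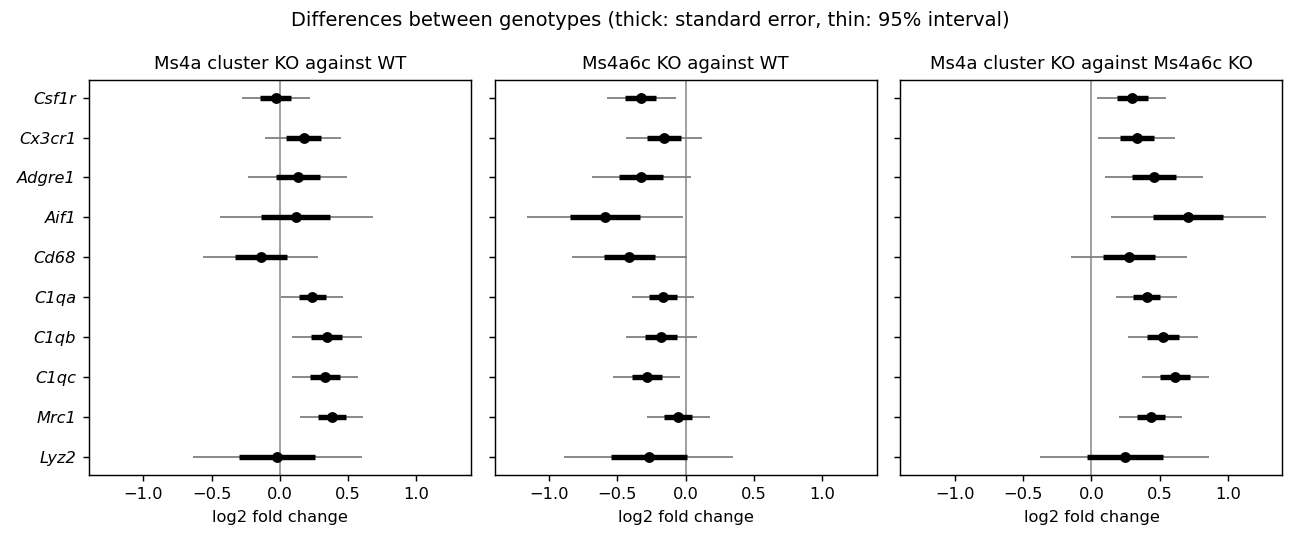
Log2 fold change of each macrophage gene in the 3 comparisons of genotypes, with its standard error (thick) and 95% interval (thin) from edgeR. Estimates for the Ms4a6c knockout against the wild type all lie under 0, and those for the Ms4a cluster knockout against the Ms4a6c knockout all lie above 0.

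In the Ms4a cluster knockout against the wild type, 0 of the 10 genes were called at an adjusted p under 0.05 by edgeR, against 6 of 23225 genes (0.0258%), and 0 by DESeq2, against 0.0778% of genes. An unadjusted p under 0.05 with a higher level in the knockout was seen for 4 of the 10, C1qa, C1qb, C1qc and Mrc1, against 2.25% of all genes. The groups did not overlap for 3 of the 10, C1qb, C1qc and Mrc1, against 4.71%. Estimates were above 0 for 7 of the 10, against 51.7%, with a median of 0.15 beside 0.01 over all genes. Without Ms4a cluster knockout mouse 2, 5 of the 10 were above 0 and the median was 0.02.

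In the Ms4a6c knockout against the wild type, edgeR called 0 of the 10 genes (0.435% of all genes) and DESeq2 called 0 (1.84%). Of the 10, 3 had an unadjusted p under 0.05 and a lower level, Csf1r, C1qc and Aif1, against 5.13% of all genes. The knockout lay wholly under the wild type for 5, Csf1r, Adgre1, C1qc, Cx3cr1 and Aif1, against 8.55%. All 10 estimates were under 0, against 50.3% of all genes, with a median of -0.27 beside 0.00. Without the gland-rich libraries, 2 genes were called, Csf1r and Cd68, against 1.54% of all genes, and 9 of the 10 were under 0. With plain library sizes the median of all genes moved by 0.18, and 5 of the 10 macrophage genes were above 0, against 76.4% of all genes. Relative to the median of all genes, all 10 were lower under both scalings, with medians of -0.27 with TMM and -0.22 with plain library sizes. Taking values relative to that median is itself a scaling by the bulk of genes, as TMM is. Its likeness to the TMM result is therefore largely built in and is no separate check.

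The knockouts, which share no mice, were compared directly. Between them edgeR called 0 of the 10 genes (0.443% of all genes), and DESeq2 called C1qb and C1qc (1.3% of all genes). An unadjusted p under 0.05 with a higher level in the Ms4a cluster knockout was found for 8 of the 10, all but Cd68 and Lyz2, against 4.68% of all genes. The Ms4a cluster knockout lay wholly above the Ms4a6c knockout for 9 of the 10, all but Lyz2, against 7.86%. All 10 estimates were above 0, against 51.4%, with a median of 0.42 beside 0.01. With plain library sizes, where the median of all genes moved by -0.17, all 10 remained above 0 while 25.5% of all genes were. Without the gland-rich libraries edgeR called 1 gene, C1qc (0.647% of all genes), and 9 of the 10 were above 0.
The comparisons with the wild type share the wild-type mice, so a low or high wild-type mouse moves both in the same way. Set side by side, C1qc differed from the wild type by 0.33 in the Ms4a cluster knockout and -0.28 in the Ms4a6c knockout, and C1qb by 0.34 and -0.18. Mrc1 differed by 0.38 and -0.05, and Csf1r by -0.03 and -0.33.

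Of the Ms4a genes that macrophages express, 4 were above 1 CPM in every wild-type mouse. Ms4a7, a membrane protein of tissue macrophages, was at 4.76, 3.72 and 4.04 CPM in wild-type mice and 3.85, 2.48 and 3.12 CPM in Ms4a6c knockout mice. It had 0 counts in all Ms4a cluster knockout mice, at least 20.9-fold lower than in the wild type when set at 3 counts a library (edgeR adjusted p = 0.00163). Ms4a6b was at 2.56, 3.66 and 3.13 CPM in wild-type mice and at 1.52, 1.303 and 2.17 CPM in Ms4a6c knockout mice, which did not overlap. Its log2 difference there was -0.91 (unadjusted p = 0.0129, edgeR adjusted p = 0.302). Ms4a6d was at 1.85, 1.61 and 1.48 CPM in wild-type mice and at 1.27, 0.87 and 1.21 CPM in Ms4a6c knockout mice, again without overlap, with a difference of -0.55 (edgeR adjusted p = 0.575). Ms4a4a, Ms4a4b, Ms4a4c and Ms4a14 were at or under 0.683 CPM in every mouse, and Ms4a8a was too low to be tested.

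**Figure D3:**
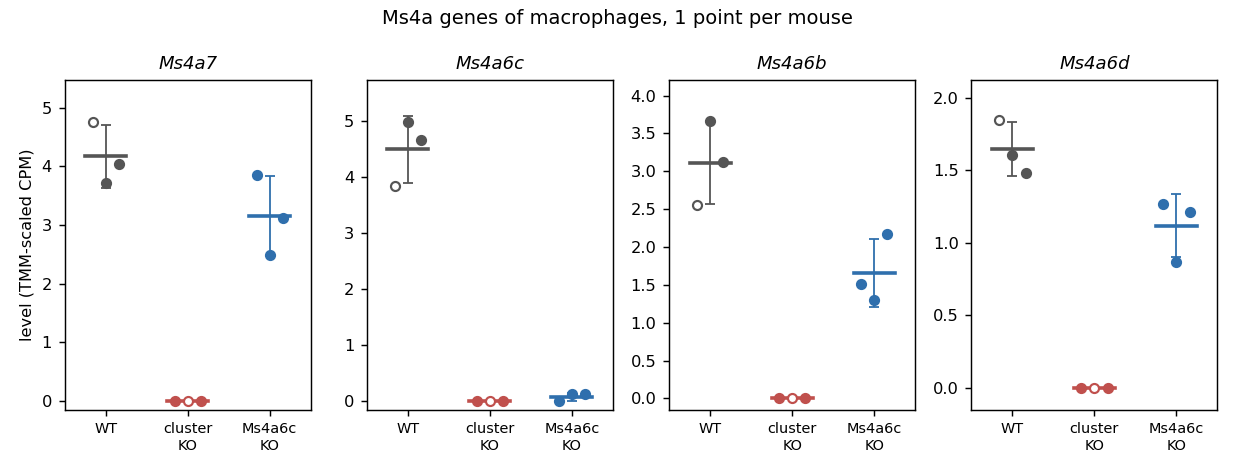
Level of the 4 most abundant Ms4a genes of macrophages (TMM-scaled CPM, linear axes) in each mouse. Lines are means, bars 1 SD of 3 mice, open points the gland-rich libraries. The cluster knockout mice lie at 0 in all panels, and the Ms4a6c knockout mice lie at or under 0.13 CPM for Ms4a6c and between the other genotypes for Ms4a6b and Ms4a6d.

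Over the 6 wild-type and Ms4a6c knockout mice, the 10 genes and Ms4a7, Ms4a6b and Ms4a6d gave 30 pairs, of which 29 had a positive Pearson r, with a median of 0.571. None of the 30 passed adjustment in the exact permutation test, and the highest was Adgre1 with Ms4a7 (r = 0.853, exact permutation p = 0.0264, adjusted p = 0.417; Spearman's rho = 0.886, exact permutation p = 0.0333, adjusted p = 0.2). Without the 2 mice farthest from the median of Adgre1, its r was 0.677. Once the genotype means were removed, r was 0.682 for Adgre1 with Ms4a7 and the median of the 30 pairs was 0.009. The 1 pair under the threshold then was negative, Mrc1 with Ms4a6b (r = -0.96, permutation p = 0.00139, adjusted p = 0.0417), whose r over the 6 mice was -0.094. Residuals sum to 0 within each genotype and cannot be exchanged freely between mice. This permutation p is therefore not exact, and the pair is given as a description. Ms4a6b and Ms4a6d have near-identical stretches, so the division of reads between them is uncertain.

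The macrophage genes co-varied unevenly across the 9 mice. Of their 45 pairs, 43 had a positive r, with a median of 0.659, and 18 passed an exact two-sided permutation test after adjustment over the 45. By Spearman's rho, 10 passed. C1qa, C1qb, C1qc, Mrc1, Cx3cr1, Adgre1 and Aif1 made up 17 of these 18 pairs, and the remaining one was Csf1r with Cd68.
C1qa and C1qc were the closest pair, with r = 0.962 (exact permutation p = 0.000176, adjusted p = 0.00766) and rho = 0.933 (exact permutation p = 0.00075, adjusted p = 0.00843), and r = 0.919 without the 2 mice farthest from the median of C1qa. Adgre1 and Aif1 had r = 0.923 (exact permutation p = 0.000852, adjusted p = 0.00766) and rho = 0.983 (exact permutation p = 4.96e-05, adjusted p = 0.00223), and r = 0.836 without the 2 farthest mice. Csf1r and Cd68 had r = 0.835 (exact permutation p = 0.00564, adjusted p = 0.0247) and rho = 0.833 (exact permutation p = 0.00827, adjusted p = 0.0413), and r = 0.859 without the 2 farthest mice.
Cd68 had r between 0.06 and 0.304 with the C1q genes. Its r with Adgre1 was 0.35 and with Aif1 0.208 over the 9 mice, but 0.849 and 0.726 without the gland-rich libraries. Lyz2 passed with none of the other 9.

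The correlations were weaker with the genotype means removed. Within genotypes the median r was 0.462 and 0 pairs passed, though r was still 0.866 for C1qa with C1qc, 0.81 for Adgre1 with Aif1 and 0.765 for Csf1r with Cd68. C1qb with Mrc1, 0.787 over the 9 mice, was -0.02 within genotypes. Without the gland-rich libraries the median was 0.57 and 5 pairs passed. Leaving out 1 mouse gave between 6 and 19 pairs, with 6 without Ms4a cluster knockout mouse 2 (median r = 0.512) and 8 without Ms4a6c knockout mouse 2 (0.605), while the median was 0.643 to 0.718 without any one of the other 7.

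**Figure D4:**
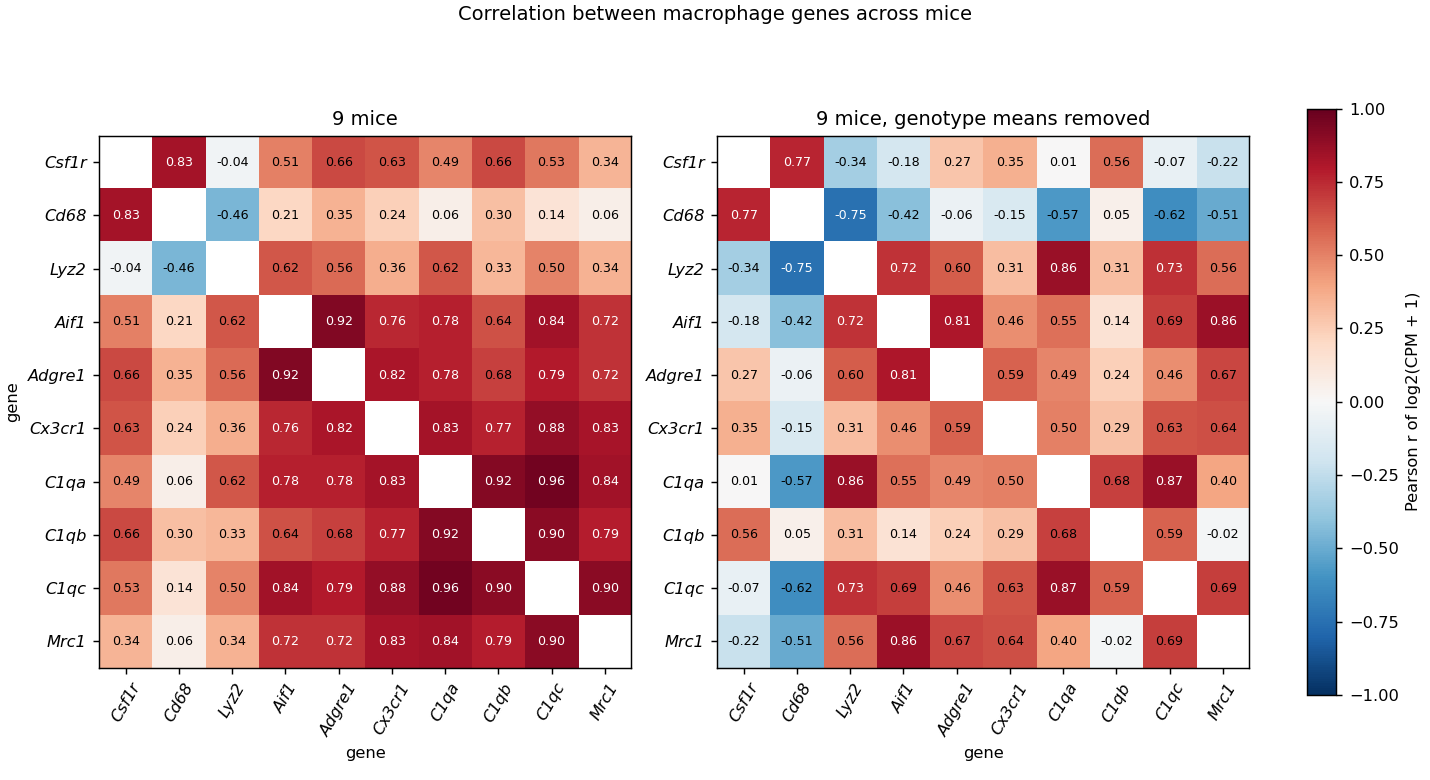
Pearson r of log2(CPM + 1) for each pair of macrophage genes over the 9 mice, as measured (left) and with the genotype means removed (right). Red is positive and blue negative. The block from Aif1 to Mrc1 is red on the left, and Csf1r and Cd68 pair with each other in both panels.

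Genes that work with these 10 were counted in lists. Counts at an unadjusted p under 0.05 that are given as 3 numbers are in either direction, for the 3 comparisons in the order used below. Over all genes these shares were 4.93%, 10.5% and 9.38%. Among 12 genes of the CSF1 axis, the growth factors and lineage transcription factors, edgeR called 0 in any comparison (unadjusted p under 0.05 for 0, 1 and 1), and the medians were 0.04, 0.01 and 0.06 for the Ms4a cluster knockout against the wild type, the Ms4a6c knockout against the wild type and the direct comparison. Runx1 was highest of them at 32.3 to 38.5 CPM, then Cebpa at 26.9 to 33.0 CPM, both transcription factors that other cells of this tissue also use. The ligands of Csf1r stayed within narrow ranges, Csf1 at 10.1 to 13.1 CPM and Il34 at 3.66 to 4.71 CPM. Spi1, which encodes PU.1, was at 4.96, 5.33 and 5.03 CPM in Ms4a6c knockout mice and 4.69, 6.82 and 6.997 CPM in wild-type mice, which overlapped.

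In the classical complement list, which holds the proteases that C1q activates and their substrates and inhibitors, edgeR called 0 of 11 genes in any comparison (unadjusted p under 0.05 for 4, 1 and 4), and the medians were 0.07, -0.02 and 0.03. The unadjusted counts were 3 higher and 1 lower, then 1 higher, then 2 higher and 2 lower. C1s1, a protease of the C1 complex, was at 35.5, 32.1 and 39.2 CPM in wild-type mice and at 40.3, 44.8 and 40.4 CPM in Ms4a cluster knockout mice. These did not overlap, as for C1qb and C1qc, with a difference of 0.23 (unadjusted p = 0.0329, edgeR adjusted p = 0.968). Serping1, the inhibitor of that complex, was at 76.9 to 102 CPM, Calr, which binds C1q, at 427 to 516 CPM and C1qbp at 40.01 to 46.95 CPM. Of the fractalkine list, edgeR called 0 of 3 genes (unadjusted p under 0.05 for 1, 0 and 0). Cx3cl1, the ligand of Cx3cr1, was at 35.2, 31.7 and 33.3 CPM in wild-type mice and at 36.7, 44.2 and 40.7 CPM in Ms4a cluster knockout mice, a difference of 0.28 without overlap (unadjusted p = 0.0051, edgeR adjusted p = 0.968), while the proteases that shed it, Adam10 and Adam17, differed by -0.03 and -0.05.

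Among phagocytic receptors and adaptors, 18 of 21 could be tested, edgeR called 0 (unadjusted p under 0.05 for 2, 3 and 2), and the medians were 0.12, 0.07 and -0.04. The most abundant, Cd36, at 248 to 277 CPM, is also expressed by other cells of the nose. Gas6, a bridge between dying cells and the receptors Axl and Mertk, was at 134, 128 and 137 CPM in wild-type mice and at 163, 163 and 164 CPM in Ms4a6c knockout mice, a difference of 0.30 in the direction opposite to the 10 macrophage genes (edgeR adjusted p = 0.232). Timd4, Marco and Vsig4 were too low to be tested.

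In the list of lysosomal enzymes of macrophages, the medians of the 15 genes were 0.02, -0.04 and 0.07 (unadjusted p under 0.05 for 0, 4 and 3). The 4 were lower in the Ms4a6c knockout than in the wild type, against 5.13% of all genes. The 3 were higher in the Ms4a cluster knockout than in the Ms4a6c knockout, against 4.68%. EdgeR called 1 of the 15, between the knockouts, against 0.443% of all genes. This was Ctss, a cathepsin of antigen-presenting cells. It was at 28.6, 25.2 and 27.4 CPM in wild-type mice, at 27.2, 31.1 and 29.7 CPM in Ms4a cluster knockout mice and at 21.4, 19.8 and 19.9 CPM in Ms4a6c knockout mice, which lay under all others. It was higher in the Ms4a cluster knockout than in the Ms4a6c knockout by 0.52 (edgeR adjusted p = 0.0209), and the Ms4a6c knockout was under the wild type by -0.41, which did not pass (edgeR adjusted p = 0.0738) but did with DESeq2 (adjusted p = 0.015) and with the level of the gland gene Bpifb9b as a covariate in edgeR (-0.39, adjusted p = 0.0455). The call was lost when Ms4a6c knockout mouse 2 or 3, or Ms4a cluster knockout mouse 2 or 3, was left out (edgeR adjusted p between 0.0705 and 0.117), with plain library sizes, with the 2 genotypes alone (adjusted p = 0.0607) and with the replicate number as a block (adjusted p = 0.0965). The broadly expressed lysosomal genes Psap, Ctsb, Lamp1 and Ctsd differed by between -0.03 and 0.09 in the 3 comparisons.

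The list of tissue-resident macrophage genes had 0 called of 13 by edgeR (unadjusted p under 0.05 for 0, 3 and 3), with medians of 0.12, 0.30 and -0.08, and its median in the Ms4a6c knockout lay on the other side of 0 from that of the 10 genes. Its most abundant gene, the carbonyl reductase Cbr2 at 1902 to 2753 CPM, is also made by other airway cells. In the microglia-type list of 10 genes, the medians were 0.02, -0.22 and 0.23. At an unadjusted p under 0.05 were 0, then 1 higher and 2 lower, then 2 higher. EdgeR called 1 of the 10 in each comparison with the Ms4a6c knockout, against 0.435% and 0.443% of all genes. This was Olfml3, an extracellular matrix protein of microglia that other cells also secrete. It was at 55.9, 47.2 and 52.6 CPM in wild-type mice, at 52.2, 49.5 and 54.9 CPM in Ms4a cluster knockout mice and at 29.1, 32.4 and 32.9 CPM in Ms4a6c knockout mice. Olfml3 was lower in the Ms4a6c knockout than in the wild type by -0.72 (edgeR adjusted p = 0.00242) and higher in the Ms4a cluster knockout than in the Ms4a6c knockout by 0.73 (edgeR adjusted p = 0.00189). With plain library sizes these were -0.53 and 0.57 and did not pass. Relative to the median of all genes, which like TMM scales by the bulk of genes, they were -0.71 and 0.73, beside -0.72 and 0.73 with TMM. Tmem119 and the transcription factor Sall1, also in this list, differed from the wild type by -0.35 and 0.31 in the Ms4a6c knockout and did not pass (edgeR adjusted p = 0.581 and 0.391).

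Markers of other cells moved with some of these values. Osteoclasts arise from the same lineage and carry Csf1r and Cd68, and turbinate bone lies under the epithelium. Their 8 markers, led by Ctsk, Acp5, Nfatc1 and Mmp9, summed to 445, 658 and 742 CPM in wild-type mice, 577, 540 and 494 CPM in Ms4a cluster knockout mice and 488, 365 and 359 CPM in Ms4a6c knockout mice, and none was at 0. Ctsk alone was at 157, 254 and 292 CPM in wild-type mice and 171, 121 and 112 CPM in Ms4a6c knockout mice. EdgeR called 0 of the 8 in any comparison, with 4 at an unadjusted p under 0.05 and lower in the Ms4a6c knockout than in the wild type, against 5.13% of all genes. Cd68 followed this list over the 9 mice, with r = 0.929 against its mean log2 level (exact permutation p = 0.000408, adjusted p = 0.0367 over 90 pairs of a macrophage gene and a marker list) and rho = 0.917 (exact permutation p = 0.00131, adjusted p = 0.059), and it was the only pair of the 90 to pass by r. Its r was 0.942 without the 2 mice farthest from the median of Cd68 and 0.904 within genotypes. Csf1r had r = 0.816 (exact permutation p = 0.00829, adjusted p = 0.0829) and rho = 0.817 (exact permutation p = 0.0108, adjusted p = 0.138), with 0.781 without the 2 farthest mice and 0.635 within genotypes. The part of osteoclast transcripts in the Csf1r and Cd68 values was not tested.

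**Figure D5:**
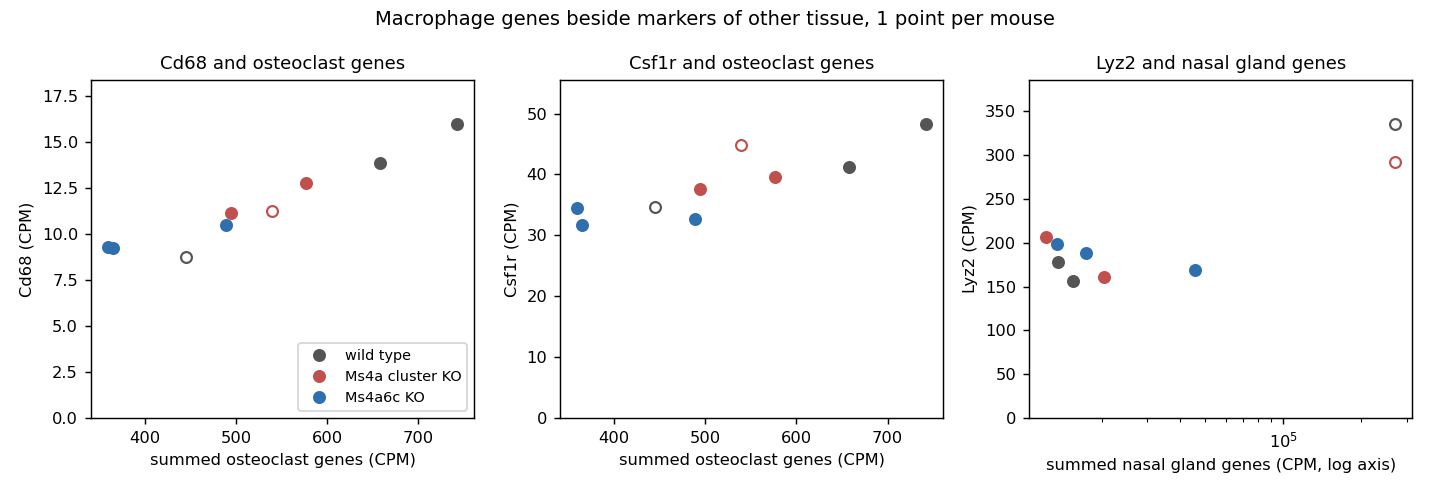
Level of Cd68 and Csf1r against the summed CPM of 8 osteoclast genes, and of Lyz2 against the summed CPM of 10 nasal gland genes (log axis), with 1 point per mouse and open points for the gland-rich libraries. Cd68 and Csf1r are highest in wild-type mouse 3, which has the highest osteoclast sum (742 CPM), and Lyz2 is highest in the 2 gland-rich libraries.

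Sustentacular markers, those of the supporting cells of the epithelium, summed to between 15220 and 17190 CPM in wild-type and Ms4a cluster knockout mice and to between 19140 and 20700 CPM in Ms4a6c knockout mice, while the median difference of the 8 from the wild type was 0.02 there. C1qa had r = -0.91 with this list over the 9 mice (exact permutation p = 0.0012, adjusted p = 0.0538) and rho = -0.917 (exact permutation p = 0.00131, adjusted p = 0.059), with -0.86 without the 2 farthest mice and -0.856 within genotypes. Red blood cell markers summed to 2058 CPM in Ms4a cluster knockout mouse 2 and to 1932 and 2346 CPM in Ms4a6c knockout mice 2 and 3, against 666 to 945 CPM in the other 6, and none of the 5 was at 0 in a mouse. All 5 had an unadjusted p under 0.05 and a higher level in the Ms4a6c knockout than in the wild type, against 5.34% of all genes, with 0 called by edgeR. Neutrophil markers summed to 197 to 450 CPM in wild-type mice, 356 to 711 CPM in Ms4a cluster knockout mice and 170 to 361 CPM in Ms4a6c knockout mice, with Ly6g at 0 in at least 1 mouse. Gene by gene the direction differed from these sums, with medians of 0.59, 1.09 and -0.65 in the order of comparisons used above. In the Ms4a6c knockout 9 of the 10 were above the wild type. At an unadjusted p under 0.05, 6 were higher there, against 5.34% of all genes, and 1 was lower, against 5.13%. Between the knockouts, 9 of the 10 were lower in the Ms4a cluster knockout. The pan-leukocyte genes summed to 312 to 314 CPM in wild-type mice, 309 to 332 CPM in Ms4a cluster knockout mice and 278 to 312 CPM in Ms4a6c knockout mice. EdgeR called 0 of these 10 in any comparison (unadjusted p under 0.05 for 0, 0 and 0). Their medians were 0.09, 0.02 and 0.08, and 6 of the 10 were above the wild type in the Ms4a6c knockout. The most abundant of the pan-leukocyte genes, the actin-bundling Lcp1, differed from the wild type by -0.13 in that knockout. In the same order of genotypes, monocyte markers summed to 163 to 172, 142 to 154 and 123 to 166 CPM. Their medians in the 3 comparisons were 0.09, 0.41 and -0.41, so the sums and the median differed in direction for the Ms4a6c knockout. There 6 of the 9 were above the wild type, with 3 higher and 0 lower at an unadjusted p under 0.05. Dendritic cell markers summed to 24.5 to 26.5, 25.4 to 27.9 and 26.7 to 30.7 CPM, and mast cell markers to 13.9 to 15.5, 16.6 to 18.6 and 15.6 to 16.5 CPM. B and T cell markers stayed at or under 9.77 CPM in sum, with Cd3d and Cd8a at 0 in at least 1 mouse. In these lists edgeR called 0 genes. Mature olfactory neuron markers summed to 12460 to 14310 CPM in wild-type mice, 11320 to 14220 CPM in Ms4a cluster knockout mice and 13830 to 14410 CPM in Ms4a6c knockout mice, with none at 0. All 10 had a lower estimate in the Ms4a cluster knockout than in the wild type (median -0.06) and than in the Ms4a6c knockout (median -0.14, 2 at an unadjusted p under 0.05), the direction opposite to most of the macrophage genes, and edgeR called 0 of the 10. Cx3cr1 had r = -0.902 with this list (exact permutation p = 0.00244, adjusted p = 0.0638) and rho = -0.867 (exact permutation p = 0.00451, adjusted p = 0.124), with -0.681 without the 2 farthest mice and -0.88 within genotypes. C1qa, C1qc and Adgre1 had r = -0.823, -0.802 and -0.783, and did not pass either. Whether blood in the tissue or the shares of neurons and supporting cells had a part in the macrophage values was not tested.

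Among the genes whose pattern over the 9 mice was most like the mean z score of the 10, of 16527 with at least 1 CPM on average, were Thbs2 (r = 0.977), Ptk2b (0.977), Ext1 (0.968), Gna11 (0.955), Psmb8 (0.951), Rpsa-ps10 (0.95), Cxcl16 (0.946), Sh3gl2 (0.944) and Nme6 (0.94). In all, 48 genes (0.29%) had an r above 0.9, and the median of all was -0.019. For Csf1r alone the most like were Fgf13 (0.979), Npnt (0.97), Adam12 (0.949), Rbbp7 (0.941) and Timp2 (0.937), with 33 genes (0.2%) above 0.9. None of the genes named here was in a macrophage or marker list. These are the highest of many values over 9 mice and are given as a description.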

How the data were processed

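Poly-A RNA of the dissected main olfactory epithelium of 9 mice was made into directional libraries (NEBNext Ultra II) and sequenced in pairs of 150 bases. Per the labels and the study's methods, the authors aligned reads with STAR 2.6.1 and estimated expected counts per gene with RSEM 1.3.1 on mm10 with GENCODE 25 models for the mouse. The deposited table holds these expected counts, of which 9.12% to 11.7% of values were not whole, and they were rounded here. Reads of near-identical genes are divided by RSEM by estimate.

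Genes with at least 10 counts over the 9 mice were fitted in 1 model with edgeR 4.0.16 (R 4.3.3), with TMM scaling and the quasi-likelihood test, and p-values were adjusted by Benjamini-Hochberg over all 23225 tested genes, with a threshold of 0.05. Values in brackets after a log2 difference are its 95% interval from this fit. DESeq2 1.42.0 was an alternative. The script was tested on simulated counts. Correlations used log2(CPM + 1) and exact two-sided permutation tests (Python 3.11), adjusted within each family of pairs. With the genotype means removed, the permutation tests are not exact. Coordinates and exon lengths came from GENCODE 21 for the mouse on GRCm38.

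The 10 genes, the 20 marker and pathway lists and the tests were chosen with earlier results of these data known. Genes named in the text were the 10, Lyz1, the macrophage Ms4a genes, every listed gene that was called, the 4 most abundant of each list, and the genes most alike in pattern. Csf1, Il34, Spi1, Ly6g, Cd3d and Cd8a and the gland genes were named besides, after their values were seen. Some genes that this rule names are not reported here. Alternatives were another scaling, filter, tool and set of samples, the replicate number as a block, and leaving out each mouse. Plain library sizes for the fits, the level of the gland gene Bpifb9b as a covariate (the gland covariate), leaving out the gland-rich libraries, and the pairs with marker lists were added after seeing the data. Replicate numbers were not used to pair mice, as the labels do not say that they mark pairs. Same-numbered deviations correlated at -0.616, -0.41 and -0.149 between the Ms4a cluster knockout and the wild type, over 16537 genes. Deviations sum to 0 within a genotype, and the gland-rich libraries carry different numbers, so these values cannot exclude pairing.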

Additional observations from a re-analysis of the deposited data

Results flagged for a closer look

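C1qc lay on opposite sides of the wild type in the 2 knockouts, with each Ms4a cluster knockout mouse above and each Ms4a6c knockout mouse under the wild-type mice. The log2 difference between the knockouts was 0.61 and did not pass in edgeR's test (adjusted p = 0.0506). Ctss differed between the knockouts by 0.52 (edgeR adjusted p = 0.0209) and Olfml3 by 0.73 (edgeR adjusted p = 0.00189), both higher in the Ms4a cluster knockout. Agr2, a secretory gene in the nasal gland list, was lower in the Ms4a cluster knockout than in the Ms4a6c knockout by -0.31 (edgeR adjusted p = 0.0315). EdgeR also called it higher in the Ms4a6c knockout than in the wild type. Agr2 was at 204, 210 and 201 CPM in wild-type mice, 199, 208 and 206 CPM in Ms4a cluster knockout mice and 250, 251 and 260 CPM in Ms4a6c knockout mice. The gland-rich libraries did not stand apart for it.

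Ms4a7, Ms4a6b and Ms4a6d also differed between the knockouts, since the Ms4a cluster knockout mice had 0 counts of each. The fitted log2 values were -8.78, -7.85 and -7.29 (edgeR adjusted p = 0.000294, 0.00143 and 0.00225) and depend on the prior count. Set at 3 counts a library, the Ms4a cluster knockout was at least 15.8-fold lower for Ms4a7, 8.32-fold lower for Ms4a6b and 5.59-fold lower for Ms4a6d.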

How the results depend on the processing

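Over the alternatives, 55 counts of calls stayed within 1.5 times the count reported and 13 did not. Most of the 55 were counts of 0 beside a reported 0, for which this range says little. Macrophage genes called between the Ms4a6c knockout and the wild type numbered 2 without the gland-rich libraries and 0 with any 1 mouse left out. Between the knockouts 2 were called by DESeq2, C1qb and C1qc, and 1, C1qc, with edgeR's own filter, with no filter, with the gland covariate and without the gland-rich libraries. Correlated macrophage gene pairs numbered 0 within genotypes and 5 without the gland-rich libraries, and 6 to 19 when 1 mouse was left out (6 without Ms4a cluster knockout mouse 2, 8 without Ms4a6c knockout mouse 2), against 18. Pairs with Ms4a genes numbered 1 within genotypes, Mrc1 with Ms4a6b, which was negative and whose permutation p is not exact. Listed genes called by DESeq2 were 10 for the Ms4a6c knockout against the wild type and 12 between the knockouts, against 3 and 6 by edgeR. The cause of these shifts was not tested.

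The directions that turned were these. For the Ms4a cluster knockout against the wild type, Lyz2 was 0.08 with the gland covariate, 0.02 with plain library sizes, 0.01 with the replicate block and 0.14 without the gland-rich libraries, and Adgre1 was -0.01 without them. Leaving out 1 mouse gave ranges of -0.14 to 0.10 for Csf1r, -0.35 to 0.05 for Cd68, -0.03 to 0.25 for Adgre1, -0.28 to 0.39 for Lyz2, -0.03 to 0.27 for Aif1 and -0.05 to 0.07 for Olfml3. For the Ms4a6c knockout against the wild type, plain library sizes, which moved the median of all genes by 0.18, gave 0.04 for C1qa, 0.00 for C1qb, 0.03 for Cx3cr1, 0.14 for Mrc1 and 0.02 for Lyz2. All were under that median, but setting them against it is a scaling by the bulk of genes, as TMM is, and no separate check. Lyz2 was 0.15 without the gland-rich libraries and -0.47 to 0.15 when 1 mouse was left out. Between the knockouts Lyz2 was -0.02 without those libraries and -0.01 to 0.43 when 1 mouse was left out. The correlation of C1qb with Mrc1 was -0.02 within genotypes.

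With the replicate number as a block, 0 macrophage genes were called in each comparison, all genes called were 2, 71 and 75 against 6, 101 and 103, and Ctss between the knockouts was no longer called (edgeR adjusted p = 0.0965). Same-numbered deviations correlated at -0.0262 on average for the Ms4a6c knockout with the wild type and 0.0213 for the knockouts. Aif1, with 19 to 51 counts a library, had the widest interval of the macrophage genes apart from Lyz2.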
